A study of Gallus gallus with 6 samples.

Results

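The genes described here encode the tip link and the mechanotransduction channel of the hair cell bundle. They were taken by name from the deposited gene table, and all 10 names (TMC1, TMC2, LHFPL5, TMIE, CIB2, CDH23, PCDH15, USH1C, USH1G and LOXHD1) had 1 row each among 25619 rows. Expression was measured by bulk RNA-seq in 3 libraries of explants given streptomycin (SM) plus BQ788 and in 3 SM controls, all labelled day 3. Both groups were cochlear ducts of chicks at post-hatch day 1, kept in culture and exposed to SM for 48 h, an aminoglycoside that the labels' protocol says removed all hair cells. BQ788, a small-molecule blocker of the endothelin receptor type B, was added afterwards in 1 group, and the auditory epithelium (basilar papilla) was then peeled off with thermolysin. No strain, sex, number of explants per library, BQ788 dose, day of its addition or vehicle is given in the sources used here, and no group went without SM, so loss and return of hair cells were not measured.

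Hair cells detect sound with a bundle of actin-filled stereocilia, in which fine filaments called tip links join each stereocilium to its taller neighbour. CDH23 forms the upper part of the link and PCDH15 the lower part, where it meets the channel complex of TMC1, TMC2, TMIE, LHFPL5 and CIB2. Deflection of the bundle pulls on the links and opens the channel. Most of these roles are known from mouse and zebrafish, and several of the genes are deafness genes in humans.

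The FPKM values (read density per kilobase of gene, scaled for each library) could be turned back into reads. In each library every value times its gene's length was a multiple of a common step. The scale did not follow recovered reads alone. For 3 reads at 1 kb it gave 0.169 FPKM in BQ788 replicate 1, with 16728070 reads, and 0.177 FPKM in BQ788 replicate 2, with 17070306 reads. Recovered reads came to between 16369723 and 17070306 per library with BQ788 and between 15438305 and 17375656 in SM controls. Transcripts of hair cells were present in every library, as fits the labelled tissue, although the protocol describes loss of all hair cells before the later culture. Whether they came from surviving or from new hair cells was not tested. MYO7A, one of several myosin motors of the bundle, was at 4.64, 6.04 and 7.25 FPKM with BQ788 and 7.37, 7.43 and 9.90 FPKM in SM controls. OTOF, the synaptic calcium sensor, was at 22.9, 23.4 and 28.4 FPKM with BQ788 and 28.1, 30.4 and 38.7 FPKM in SM controls. Other hair cell markers did not all go the same way. POU4F3 (log2 fold change -0.33, limma adjusted p = 0.175) and CALB2 (-0.30, adjusted p = 0.203) were lower on average with BQ788. ATOH1 (-0.07, adjusted p = 0.711) and MYO6 (0.03, adjusted p = 0.912) differed little, and OCM had no row. Marker lists of neighbouring cells moved with the groups in part. Here a gene fell if it was lower at a limma adjusted p under 0.05, as 2.24% of 11857 genes were. The summed level of 8 cartilage genes was 105 to 130 FPKM with BQ788 and 221 to 261 FPKM in SM controls, and 3 of 5 tested members fell. Nearly all of that sum came from the collagen genes COL2A1, COL9A1, COL9A2 and COL9A3, and the 3 that fell were COL9A1, COL9A2 and COL9A3. Other cartilage markers were low in every library, with MATN1 at 0 to 0.0196 FPKM, ACAN at 0.0682 to 0.446 FPKM and HAPLN1 at 0.234 to 0.787 FPKM. The summed level of 11 neuron and Schwann cell genes was 133 to 165 FPKM with BQ788 and 167 to 178 FPKM in SM controls, and 3 of 6 tested members fell. That of 7 melanocyte genes was 4.31 to 6.81 FPKM with BQ788 and 13.3 to 13.6 FPKM in SM controls, where 1 of 4 tested members fell. Fibroblast genes, of which 1 of 10 fell, were summed at 315 FPKM in BQ788 replicate 1, 123 and 164 FPKM in the other BQ788 libraries and 213 to 276 FPKM in SM controls. Endothelial genes (1 tested, 0 called in limma and 1 at an unadjusted p of 0.05) were summed at 8.27 to 12.4 FPKM with BQ788 and 11.6 to 12.2 FPKM in SM controls. Blood and macrophage genes (4 tested, 0 called in limma or at an unadjusted p of 0.05) were summed at 17.3 to 36.9 FPKM with BQ788 and 10.5 to 24.4 FPKM in SM controls, with HBAD, HBBR and HBE1 at 0 in every library. Whether called or not, log2 fold changes were below 0 in 5 of 5 tested cartilage genes and 4 of 6 neuron and Schwann cell genes. The same held for 3 of 4 melanocyte, 5 of 10 fibroblast, 1 of 1 endothelial and 0 of 4 blood and macrophage genes. Over all genes tested the share was 46.5%. The 1 endothelial gene does not stand for its list. In limma voom on recovered reads of genes averaging 10 reads or more, 1 of 6 endothelial genes was below 0, against 50.4% of all genes. Their median log2 fold change there was 0.45. The part of these cells in the results below was not tested. In bulk RNA, fewer hair cells and less RNA per hair cell cannot be told apart.

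All 10 genes were detected in all 6 libraries, but their levels per kilobase spread over more than 2 orders of magnitude. USH1C was highest, with a mean over the 6 libraries of 34.7 FPKM, above 91.2% of the 20512 genes detected. LHFPL5 (13.9 FPKM), LOXHD1 (12.9 FPKM) and CIB2 (7.28 to 8.70 FPKM over the 6 libraries) came next, and TMC2 (2.69 FPKM) lay near the middle of detected genes. TMC1 (0.775 FPKM), CDH23 (0.668 FPKM) and PCDH15 (0.624 FPKM) formed a lower tier, and USH1G (0.217 FPKM) and TMIE (0.151 FPKM) were lowest. LHFPL5 and LOXHD1 overlapped in level within both groups, as did CDH23 and PCDH15, and USH1G and TMIE. TMC1 overlapped with both CDH23 and PCDH15 among SM controls and with neither in the BQ788 group, where the lowest TMC1 value was 0.806 FPKM and the highest values of PCDH15 and CDH23 were 0.574 and 0.559 FPKM. USH1C stayed above LHFPL5 and LOXHD1, these above CIB2, CIB2 above TMC2, TMC2 above the lower tier and that tier above USH1G and TMIE, without overlap in either group. Levels per kilobase set genes of unequal length on 1 scale. PCDH15, 39188 bases long in the table, had 301 to 579 reads per library, more than the 217 to 364 reads of LHFPL5, which is 1289 bases long. Which transcripts were present was not measured here, so the levels per kilobase of long gene models such as PCDH15, CIB2 (15609 bases) and TMC1 (14424 bases) relative to other genes are uncertain.

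**Figure D1:**
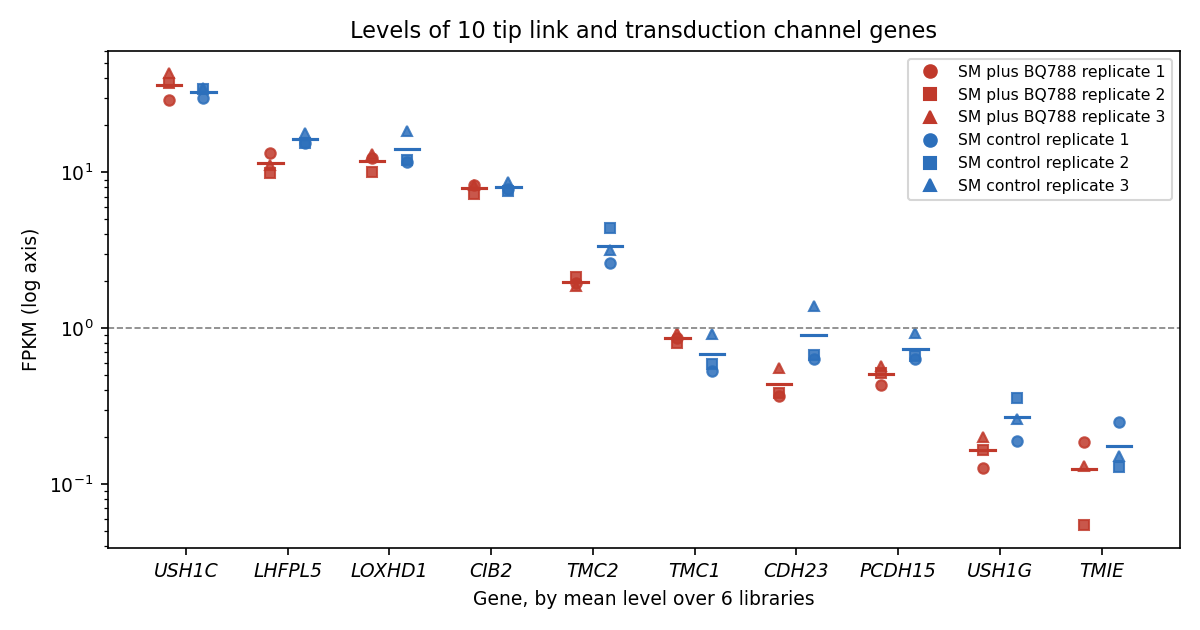
FPKM (log axis) of each gene in each of the 3 SM plus BQ788 and 3 SM control libraries, with bars at the group means and a dashed line at 1 FPKM. The SM plus BQ788 points lie wholly below the SM control points for LHFPL5, TMC2, CDH23 and PCDH15, and the groups overlap for the other genes.

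Both tip link cadherins were lower with BQ788 in every library than in any control, without passing the test. CDH23 (chromosome 6, 12518477 to 12647045, plus strand, GRCg7b) was at 0.366, 0.387 and 0.559 FPKM with BQ788 and 0.634, 0.678 and 1.39 FPKM in SM controls. SM control replicate 3 was far above the other controls, and the groups did not overlap. These values rested on 86, 87 and 115 reads with BQ788 and 149, 141 and 292 reads in SM controls. Means were 0.437 ± 0.106 FPKM with BQ788 and 0.899 ± 0.423 FPKM in SM controls (SD, n = 3 each). On recovered reads, the log2 fold change of CDH23 was -0.98 (limma voom adjusted p = 0.157, SE 0.32), which became -0.64 (SE 0.21, adjusted p = 0.227) without SM control replicate 3.

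PCDH15 (chromosome 6, 6303212 to 7294179, plus strand) was at 0.433, 0.517 and 0.574 FPKM with BQ788 and 0.631, 0.660 and 0.930 FPKM in SM controls. Again the highest library was SM control replicate 3 and the groups did not overlap. Group means were 0.508 ± 0.0709 FPKM with BQ788 and 0.740 ± 0.165 FPKM in SM controls (SD, n = 3 each), and the log2 fold change on reads was -0.54 (SE 0.16, limma voom adjusted p = 0.124). In both cadherin genes the exact two-sided permutation p was 0.1, the smallest that 3 against 3 libraries allow. Being under a mean of 1 FPKM, neither was in the main test, and with no filter their limma adjusted p-values were 0.304 and 0.298.

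Neither scaffold gene passed the test, and both had overlapping groups. USH1C encodes harmonin, the PDZ protein that anchors CDH23 at the upper end of the link, and lies on chromosome 5 (11561591 to 11607168, minus strand). It was at 29.2, 37.4 and 43.2 FPKM with BQ788 and 30.1, 34.0 and 34.5 FPKM in SM controls. The BQ788 libraries held both the lowest and the highest value, so the groups overlapped. Its log2 fold change on the log2(FPKM + 1) scale was 0.14 (SE 0.14, 95% interval -0.20 to 0.47, limma adjusted p = 0.619). USH1C is also expressed in other epithelia, where harmonin works in microvilli.

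USH1G encodes SANS, a partner of harmonin and MYO7A, and lies on chromosome 18 (11171795 to 11191800, minus strand). It was at 0.126, 0.165 and 0.202 FPKM with BQ788 and 0.190, 0.357 and 0.261 FPKM in SM controls. The groups met at 1 pair of values, BQ788 replicate 3 and SM control replicate 1. With only 20 to 28 reads per BQ788 library and 30 to 50 per SM control library, the log2 fold change on reads of -0.68 had a wide 95% interval, from -1.40 to 0.04 (limma voom adjusted p = 0.280).

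The 2 TMC genes, which encode the pore-forming subunits, had log2 fold changes of opposite sign, and neither passed. TMC2 (chromosome 2, 44223785 to 44252729, plus strand) is the form that in mouse appears first in developing hair cells and later gives way to TMC1. It was at 1.95, 2.13 and 1.86 FPKM with BQ788 and 2.62, 4.37 and 3.19 FPKM in SM controls. The BQ788 libraries were close together and all below the controls, which spread widely. Group means were 1.98 ± 0.136 FPKM with BQ788 and 3.39 ± 0.891 FPKM in SM controls (SD, n = 3 each). Its log2 fold change was -0.54 (limma adjusted p = 0.104, SE 0.15) on the log2(FPKM + 1) scale and -0.74 (limma voom adjusted p = 0.124, SE 0.22) on recovered reads.

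TMC1 (chromosome Z, 36363375 to 36486990, plus strand) was at 0.867, 0.806 and 0.929 FPKM with BQ788 and 0.535, 0.587 and 0.925 FPKM in SM controls. Here 2 controls were below all BQ788 libraries, while SM control replicate 3 was level with them. The log2 fold change on reads was 0.38 (SE 0.20, limma voom adjusted p = 0.343), and 0.60 (SE 0.17, adjusted p = 0.189) without SM control replicate 3. In each library TMC2 exceeded TMC1 per kilobase, by 2.25, 2.64 and 2.01 times with BQ788 and by 4.90, 7.44 and 3.45 times in SM controls. The ratio thus did not overlap between groups, with means of 2.30 ± 0.321 with BQ788 and 5.26 ± 2.02 in SM controls (SD, n = 3 each). Its exact two-sided permutation p was 0.1, the smallest possible, and 0.267 after Benjamini-Hochberg adjustment over 8 ratios, which were chosen after the values were seen. TMC1, like LOXHD1, lies on a sex chromosome. Reads of chromosome W, which only female chicks carry, came to 104, 94.9 and 90.8 RPM with BQ788 and 124, 115 and 105 RPM in SM controls. The part of the chicks' sex in the TMC1 values was not tested.

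**Figure D2:**
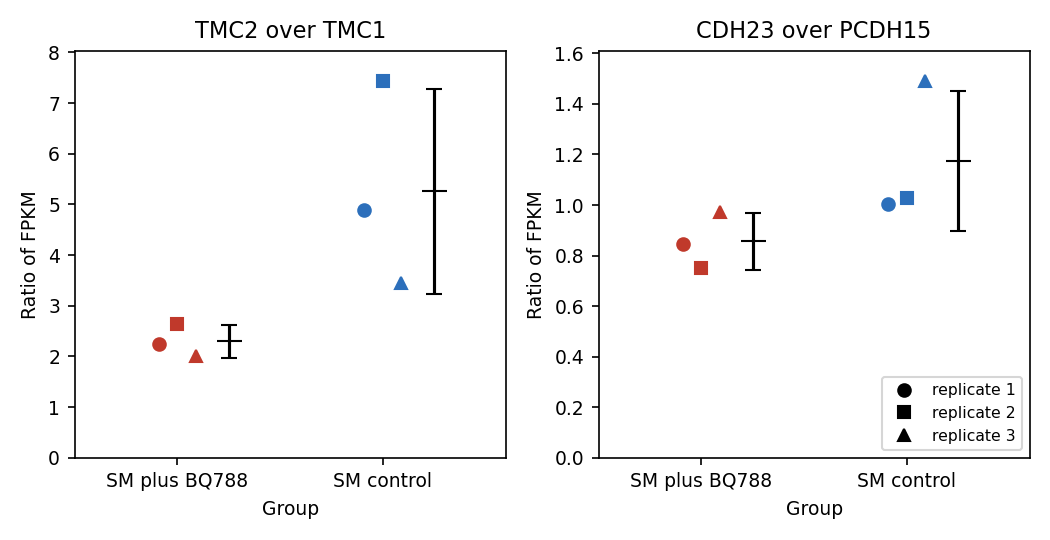
Ratio of FPKM of TMC2 over TMC1 (left) and of CDH23 over PCDH15 (right) in each library, with the group mean ± SD beside the points (n = 3 each). In both panels the 3 SM plus BQ788 points lie below the 3 SM control points, by a narrow margin for the cadherins.

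The ratio of the cadherins was closer to even. CDH23 was at 0.845, 0.750 and 0.974 times the level of PCDH15 per kilobase with BQ788 and at 1.00, 1.03 and 1.49 times in SM controls. The groups were apart by a small margin and SM control replicate 3 stood above the rest (exact two-sided permutation p = 0.1, Benjamini-Hochberg adjusted 0.267).

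Among the other channel subunits LHFPL5 came closest to the threshold. It encodes the tetraspan protein that ties PCDH15 to the channel and lies on chromosome 26 (139877 to 142973, plus strand). LHFPL5 was at 13.3, 9.94 and 11.2 FPKM with BQ788 and 15.5, 15.5 and 17.8 FPKM in SM controls. All BQ788 libraries were below all controls, and replicate 1 was the highest of them. Group means were 11.5 ± 1.72 FPKM with BQ788 and 16.3 ± 1.31 FPKM in SM controls (SD, n = 3 each). Its log2 fold change was -0.47 (95% interval -0.74 to -0.20, SE 0.11, limma adjusted p = 0.0802). Without BQ788 replicate 1, the library with the highest fibroblast sum, the log2 fold change was -0.58 and the adjusted p 0.0254. In that fit 1311 of all 11857 genes passed, against 355 in the fit of all 6 libraries. The part of fibroblasts in this was not tested. Without any 1 of the other 5 libraries the adjusted p was between 0.171 and 0.230, in fits where 1 to 21 of all 11857 genes passed.

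CIB2 encodes a calcium-binding protein that holds the TMC subunits and lies on chromosome 10 (3811007 to 3850596, plus strand). It was at 8.29, 7.28 and 8.30 FPKM with BQ788 and 7.88, 7.55 and 8.70 FPKM in SM controls. The groups overlapped, although the lowest value was in BQ788 replicate 2 and the highest in SM control replicate 3. With 1850 to 2297 reads per library the 95% interval of its log2 fold change was narrow, from -0.21 to 0.19 (estimate -0.01, limma adjusted p = 0.943). TMIE, a small membrane protein needed for channel function, lies on chromosome 2 (3297037 to 3331132, plus strand). It was at 0.188, 0.0546 and 0.131 FPKM with BQ788 and 0.250, 0.130 and 0.151 FPKM in SM controls. That is 18, 5 and 11 reads with BQ788 and 24, 11 and 13 reads in SM controls. The 5 reads alone allow 1.62 to 11.7 reads by counting error (exact Poisson 95% interval), and no difference was detectable at this depth (log2 fold change on reads -0.62, 95% interval -1.78 to 0.54, limma voom adjusted p = 0.550).

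LOXHD1 encodes a protein of repeated PLAT domains along the stereocilia that in mouse is needed for transduction in mature hair cells. It lies on chromosome Z (2218745 to 2367950, plus strand). LOXHD1 was at 12.3, 10.1 and 13.2 FPKM with BQ788 and 11.7, 11.96 and 18.5 FPKM in SM controls. SM control replicate 3 stood far above the other 5 libraries, which overlapped. The log2 fold change was -0.20 (SE 0.18, 95% interval -0.65 to 0.24, limma adjusted p = 0.566), and without that library it was 0.00 (-0.0013, adjusted p = 0.996).

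Of the 5 genes that averaged 1 FPKM or more, 0 passed an adjusted p of 0.05 in limma, where 2.99% of 11857 genes passed in either direction and 2.24% were lower. LHFPL5 and TMC2 were lower at an unadjusted p of 0.05, against 11.9% of genes (22.7% in either direction). These 2 of 5 also had groups that did not overlap. Of all 11857 genes, 14.1% were lower with BQ788 without overlap, and 29.3% did not overlap in either direction. Of the 5, 4 had a log2 fold change below 0, against 46.5% of genes, and the median was -0.20, against 0.02 over all genes tested. A second fit, limma voom on recovered reads of genes averaging 10 reads or more per library, held all 10 genes and was added after the values were seen. There again 0 of 10 passed an adjusted p of 0.05, against 1.56% of 14416 genes (1.22% lower), while LHFPL5, TMC2, CDH23 and PCDH15 were lower at an unadjusted p of 0.05, against 11.1% of all genes. The same 4 of 10 had groups that did not overlap, all lower, against 14.2% of all genes in that direction. In this fit 8 of 10 were below 0, against 50.4% of all genes.

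**Figure D3:**
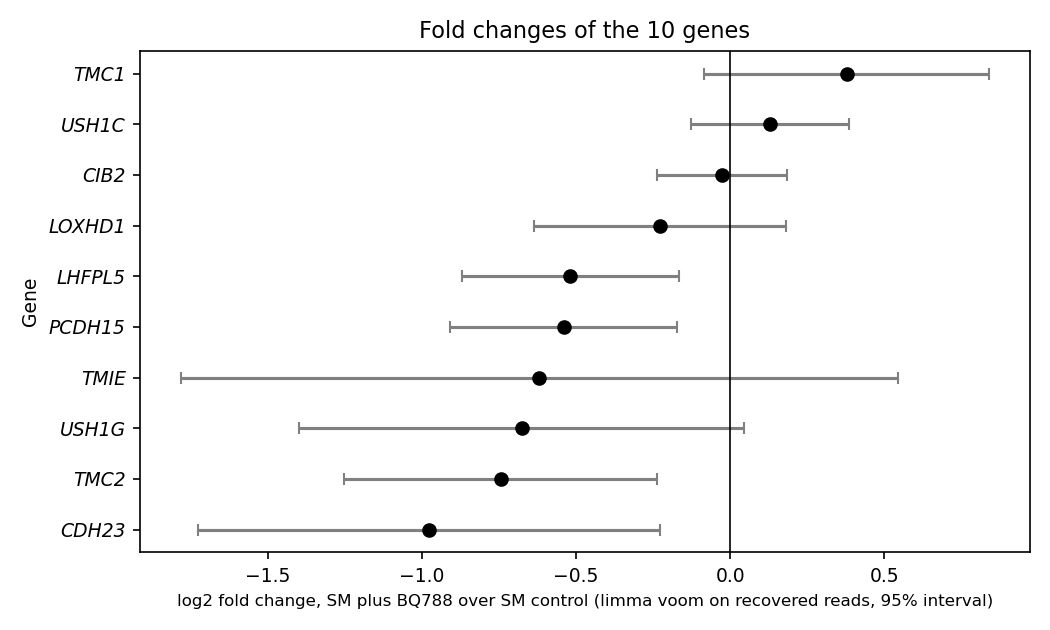
Log2 fold change, SM plus BQ788 over SM control, of each gene from limma voom on recovered reads (points) with its 95% interval (bars), not adjusted for the number of genes. The intervals of LHFPL5, PCDH15, TMC2 and CDH23 lie below 0 and the other 6 include 0.

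The genes also shared a pattern over libraries within each group. SM control replicate 3 was the highest control for 7 of the 10 genes, and SM control replicate 1 the lowest for 8. BQ788 replicate 3 was likewise the highest BQ788 library for 7 genes. These ranks rest on the FPKM scale of each library. TMC1, CIB2 and LOXHD1, among those 7, had 222, 2297 and 1826 reads in BQ788 replicate 1 (16728070 in total). In BQ788 replicate 3 (16369723 in total) they had 208, 2012 and 1715 reads. Over all genes with at least 10 reads on average, SM control replicate 3 was highest of its group for 37.6%, SM control replicate 1 lowest for 33.8% and BQ788 replicate 3 highest for 36.4%. The same libraries led for hair cell genes outside the list. Of 25 hair cell fate and cell body genes SM control replicate 3 was the highest control for 19, and BQ788 replicate 3 the highest BQ788 library for 16. The lowest BQ788 library was less alike. It was replicate 1 for 17 of these 25, but replicate 2 for 5 and replicate 1 for 4 of the 10 genes. Summed supporting cell markers were also highest of their group in SM control replicate 3 (5287 FPKM) and BQ788 replicate 3 (4891 FPKM). Most of the sum was TECTB and GJB6 (2712 and 1092 FPKM in SM control replicate 3), and single markers went both ways. SOX2, SOX9 and HES5 were lowest of their group in both of these libraries. FGFR3 and LFNG were also lowest of the controls in SM control replicate 3. MYO7A was itself lower in every BQ788 library than in any control (log2 fold change -0.41, limma adjusted p = 0.213). Division by it thus raises the difference of every gene, so smaller differences for lower genes were fixed in advance. Set against MYO7A, log2 differences of the 4 non-overlapping genes were -0.04 for LHFPL5, -0.06 for PCDH15, -0.27 for TMC2 and -0.50 for CDH23. Ratios to MYO6 (log2 fold change 0.03) or ATOH1 (-0.07), which differed little between groups, were not computed. LHFPL5 was at 2.875, 1.645 and 1.544 times the level of MYO7A per kilobase with BQ788 and 2.099, 2.088 and 1.795 times in SM controls. BQ788 replicate 1 was thus above all controls, and the other BQ788 libraries were below all controls. Group means were 2.02 ± 0.741 with BQ788 and 1.99 ± 0.173 in SM controls (exact two-sided permutation p = 1, n = 3 each). PCDH15 was at 0.0860 ± 0.00711 times MYO7A with BQ788 and 0.0894 ± 0.00417 times in SM controls (exact permutation p = 0.4). TMC2 was at 0.343 ± 0.0820 times MYO7A with BQ788 and 0.422 ± 0.145 times in SM controls (exact permutation p = 0.5). CDH23 over MYO7A still did not overlap, at 0.0789, 0.0642 and 0.0771 with BQ788 and 0.0860, 0.0912 and 0.140 in SM controls (exact permutation p = 0.1, Benjamini-Hochberg adjusted 0.267). The remaining ratios of the 8, TMC2 over LHFPL5 and LHFPL5 over USH1C, overlapped between groups (exact permutation p = 0.5 and 0.2).

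**Figure D4:**
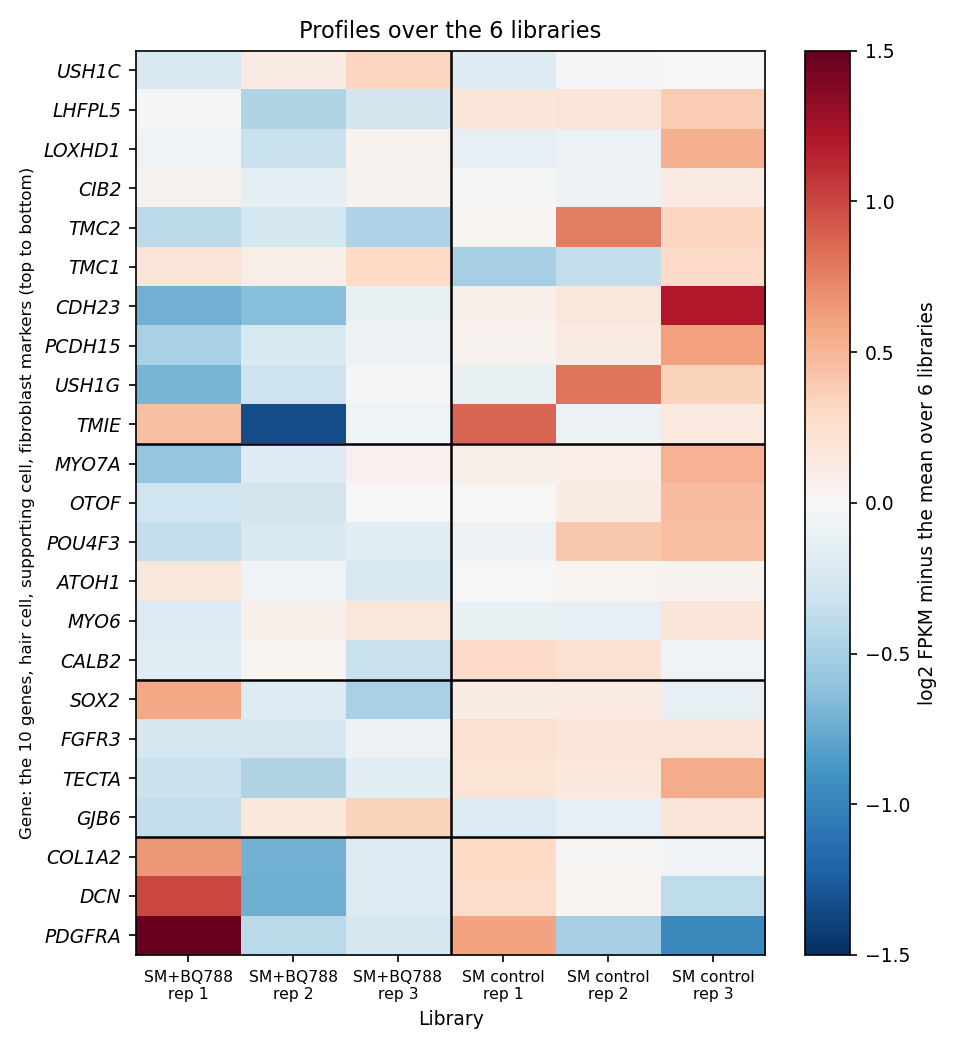
Log2 FPKM minus the mean over the 6 libraries (colour) for the 10 genes and, below the lines, hair cell, supporting cell and fibroblast markers, with SM plus BQ788 libraries left and SM control libraries right. SM control replicate 3 is the highest control for LHFPL5, LOXHD1, CDH23 and PCDH15 as well as for MYO7A and OTOF. It is not the highest for TMC2, USH1G and TMIE, and it is the lowest control for the hair cell marker CALB2. BQ788 replicate 1 is high for the fibroblast markers shown (COL1A2, DCN and PDGFRA). Of fibroblast genes not shown, COL1A1, LUM, TWIST1, TWIST2 and PDGFRB were highest in that library. POSTN and COL3A1 were below all SM controls there.

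Close relatives of these genes were measured as well, and 1 of 7 tested passed, against 2.99% of 11857 genes in either direction. CIB1, a paralog of CIB2 expressed in many cell types, fell to 76.2 ± 3.38 FPKM with BQ788, against 109 ± 4.80 FPKM in SM controls (SD, n = 3 each), with a log2 fold change of -0.52 (limma adjusted p = 0.0245, SE 0.06). It passed in 1 of 6 fits that left out 1 library, the one without BQ788 replicate 1, and its adjusted p in the others reached 0.108. Of all 11857 genes 1311 passed in that fit, 21 without BQ788 replicate 3 and 1 in each of the other fits. Failing there was thus nearly fixed in advance for any gene and says little about CIB1. PDZD7, a harmonin-like PDZ protein of stereocilia (-0.33), LHFPL1 (-0.17) and TMC6 (0.09) followed by p and had adjusted p-values of at least 0.201. Of 15 paralogs with a row, 8 were under the filter. Among them CIB3, the closest relative of CIB2 in the channel complex, was at 0.298, 0.468 and 0.643 FPKM with BQ788 and 0.827, 1.29 and 1.27 FPKM in SM controls, and TMC3 at 0.106, 0.312 and 0.328 FPKM with BQ788 and 0.745, 0.469 and 0.832 FPKM in SM controls. In both the groups did not overlap (limma voom adjusted p = 0.0833 and 0.1005), and they were picked out after their values were seen. CDHR2 was also lower without overlap. LHFPL2 was higher without overlap, at 1.17, 1.15 and 1.02 FPKM with BQ788 and 0.923, 0.885 and 0.677 FPKM in SM controls. In TMC5, ANKS4B, CDHR1 and CDHR5 the groups overlapped. Of 14416 genes averaging 10 reads or more, 14.2% were lower without overlap.

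Of 25 other hair bundle genes tested, 1 fell and 0 rose in limma over all genes. Of all 11857 genes, 2.24% fell and 2.99% passed in either direction. At an unadjusted p of 0.05, 12 of the 25 were lower and 2 higher, against 11.9% of all genes lower and 22.7% in either direction. Their median log2 fold change was -0.29, against 0.02 over all genes tested. MYO1H, an unconventional myosin, fell by 0.99 on the log2 scale (SE 0.10, limma adjusted p = 0.0189). The actin bundlers ESPN (-0.56, adjusted p = 0.0540) and FSCN2 (-0.75, adjusted p = 0.0590) passed in limma voom on reads (adjusted p = 0.0326 and 0.0420), and BAIAP2L2, which in mouse binds the tips of stereocilia (-0.40, adjusted p = 0.0716), did not. Without BQ788 replicate 1 the count of this list was 6 of 25, where 1311 of all 11857 genes passed. The count of this list was 0 without BQ788 replicate 2 or any 1 SM control, where 1 of all 11857 genes passed in each fit. Of 23 hair cell fate and cell body genes NHLH1, a basic helix-loop-helix factor (-0.79, adjusted p = 0.0327), fell and BDNF, a neurotrophin (0.46, adjusted p = 0.0415), rose. TMEM255B (-0.51) and TMPRSS3 (-0.50) did not pass. At an unadjusted p of 0.05 in limma, 12 of these 23 were lower and 1 higher, and 15 had a log2 fold change below 0. Their median log2 fold change was -0.30. Of 20 supporting cell markers 1, FGFR3 (-0.39, adjusted p = 0.0415), passed in limma, ahead of LFNG (0.27), TECTA (-0.62) and SOX9 (-0.35). In limma voom on reads FGFR3 and TECTA (adjusted p = 0.0351 and 0.0424) were both lower, 2 of 20, against 1.22% of 14416 genes. Log2 fold changes in limma were below 0 in 9 of the 20 markers and above 0 in 11, with a median of 0.05. At an unadjusted p of 0.05 in limma, 4 of the 20 were lower and 2 higher. The calls of MYO1H, NHLH1, BDNF and FGFR3 each held in limma when BQ788 replicate 1 was left out and in none of the other 5 such fits. In those 5 fits 1 to 21 of all 11857 genes passed, so losing a call there says little about a single gene.

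The mean profile of the 5 tested genes over the 6 libraries, centred on the log2(FPKM + 1) scale, was -0.11, -0.19 and -0.03 with BQ788 and -0.03, 0.12 and 0.24 in SM controls. Of 10840 other genes with a symbol, those nearest to it by root mean square distance were ASAP3 (0.022), FEZ1 (0.027), POLL (0.029), STARD10 (0.032) and CD2BP2 (0.033). None of these 5 passed in limma over all genes (adjusted p from 0.188 to 0.338). ASAP3, the nearest, was at 7.39, 6.75 and 7.66 FPKM with BQ788 and 7.96, 8.47 and 9.60 FPKM in SM controls.

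Some of the genes share genomic ground with others, and the sources used here do not say whether reads were counted by strand. The end of CIB2 overlaps the start of TBC1D2B on the same strand by 4701 bases, and TBC1D2B was at a log2 fold change of 0.21 (limma adjusted p = 0.172). CDH23 overlaps VSIR (mean 4.32 FPKM, log2 fold change 0.12, limma adjusted p = 0.700) and LOC423719 (mean 0.602 FPKM, log2 fold change on reads -0.38, limma voom adjusted p = 0.603), both on the opposite strand. PCDH15 overlaps SIRT1 at its far end, also on the opposite strand (mean 10.9 FPKM, log2 fold change -0.07, limma adjusted p = 0.827), and 7 further annotated genes, each at a mean of 0.135 FPKM or less. TMIE overlaps ALS2L by 10457 bases on the opposite strand, and ALS2L was at a mean of 2.90 FPKM. VSIR, SIRT1 and ALS2L were each higher per kilobase than the gene they overlap, so the reads of CDH23, PCDH15 and TMIE are uncertain to the extent that strand was not used. USH1G spans OTOP2, which was at or near 0 in every library. TMC1, TMC2, LHFPL5, USH1C and LOXHD1 overlap no other gene of the table.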

How the data were processed

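The deposited values are FPKM per gene, made by the authors for 6 libraries in 1 table with gene coordinates and lengths. The submitters' processing notes name fastp and the build GRCg7b. For the aligner and counter, the sources used here give nothing. RNA was 400 ng per library, per the labels' protocols. Of the gene identifiers 25616 matched the RefSeq GRCg7b table that gave chromosome names and 3 did not. Groups and replicate numbers came from the titles. Nothing says that replicates came from separate animals, so the p-values cover the spread among these libraries alone, which may be technical.

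Groups were compared on log2(FPKM + 1) with limma (version 3.58.1, R version 4.3.3; eBayes with trend, two-sided), and p-values were Benjamini-Hochberg adjusted, with a threshold of 0.05, over genes averaging 1 FPKM or more. Fold changes on that scale understate the change of low genes. Reads were whole within 0.01 for 100% of values above 0 (largest distance 3.01e-05), and limma voom ran on them, over genes averaging 1 FPKM or more, or 10 reads or more. A floor of 3 reads is 0.169 to 0.193 FPKM at 1 kb, and intervals from reads cover counting error only. The fit was tested on simulated data. The genes, lists and tests were chosen with earlier results of these data known. Named were all 10 genes, the 4 smallest p-values per list and the 5 nearest profiles. CIB3, TMC3 and the ratios were picked after their values were seen, and the other paralogs under the filter were named beside them. Alternatives were other pseudocounts, filters and scalings, a replicate block, eBayes without trend, voom, and leaving out each library.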

Additional observations from a re-analysis of the deposited data

How the results depend on the processing

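With 3 libraries per group, the count of calls changed widely when 1 library was left out. Such fits cannot separate the weight of a single library from the loss of a replicate. The count of genes past the threshold was 355, and 1 to 1311 when 1 library was left out; it was 68 with no filter, 225 with limma voom at a mean of at least 10 reads and 749 with the replicate block. Of the tip link and channel genes 0 passed in limma, and 0 to 1 (LHFPL5, without BQ788 replicate 1) when 1 library was left out, in limma and in voom at 10 reads. Pseudocounts of 0.1 and 0.5, both filters, both scalings, eBayes without trend and voom gave 0 as well. The median log2 fold change of the 5 tested genes was -0.20, and -0.31 to 0.00 (-0.0013, without SM control replicate 3) when 1 library was left out. The count of other hair bundle genes was 1, and 0 to 6 when 1 library was left out; it was 2 over genes averaging 5 FPKM or more and with quantile normalization, and 3 with voom under either filter. For each of these the cause was not tested.

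Replicate numbers are shared by the groups. Same-numbered libraries deviated together for replicates 1 and 3 (correlations 0.50 and 0.569) but hardly for replicate 2 (0.0744). BQ788 replicate 2 correlated slightly more with SM control replicate 3 (0.127). The titles do not say whether same-numbered libraries were handled together, and these correlations cannot decide it. With the replicate block in limma 0 of the 5 tested genes passed (LHFPL5 adjusted p = 0.0594, TMC2 0.0583). Of other hair bundle genes 6 of 25 did, against 749 of all 11857 genes. In voom at 10 reads with the replicate block 1551 of all 14416 genes passed. There 3 of the 10 (TMC2, CDH23 and PCDH15, adjusted p = 0.0319, 0.0138 and 0.0216) and 14 of 30 other hair bundle genes passed. The sign of CIB2 changed in 4 of 23 alternatives, none past the threshold, and that of the other 9 genes in none run. edgeR and DESeq2 on recovered reads were not run, since the deposited unit is FPKM. Depth limits TMIE and USH1G most, with 5 to 24 and 20 to 50 reads per library.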
